A study of Mus musculus with 4 samples.

Results

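Malat1 and Neat1 are neighbouring genes for long non-coding RNAs that stay in the nucleus. They were taken as the rows of the deposited count table whose gene symbol is Malat1 or Neat1, which gave 2 of 55401 genes. The table held newly made RNA, tagged by 4-thiouridine (4sU) that cells build in during transcription, from 129/Ola mouse embryonic stem cells. All cells were of a SNRNP70AID line, in which auxin (IAA) triggers the breakdown of tagged SNRNP70, the protein also called U1-70K, a part of the U1 small nuclear ribonucleoprotein (U1 snRNP). Auxin had been present for 5 h in 2 libraries, whose genotype label reads SNRNP70 degration, and for 0 h in the other 2, whose genotype label reads WT although their titles name the same degron line. All cells were grown with leukemia inhibitory factor. No auxin-treated cells without the degron were among the samples, so degradation and the agent itself cannot be told apart. The labels do not say whether the line is 1 clone, and neither the time of labelling nor a spike-in is mentioned in the labels, so each change is relative to the other RNAs of a library. The series set SNRNP70 beside ZFP207, another protein, as regulators of U1 snRNP, and the libraries here concern SNRNP70.

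Malat1 RNA gathers in nuclear speckles, bodies rich in splicing factors. Its 3' end is not made by polyadenylation but by RNase P, which cuts before a tRNA-like fold, and the part cut off becomes the small cytoplasmic mascRNA. Neat1 makes a short polyadenylated RNA and a long RNA from the same start. The long form is the scaffold of paraspeckles, nuclear bodies built with RNA-binding proteins such as NONO and SFPQ, and in human embryonic stem cells paraspeckles are known to appear only on differentiation. Both genes are transcribed largely without splicing. U1 snRNP marks 5' splice sites and guards transcripts against early cleavage and polyadenylation, and in mouse embryonic stem cells it is known to help hold non-coding RNAs on chromatin.

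In the RefSeq annotation of GRCm38 (the assembly that mm10 corresponds to), Malat1 (ENSMUSG00000092341.3 in the table) spans 5795690 to 5802672 on chromosome 19, or 6.98 kb. RefSeq places mascRNA inside it, from 5795924 to 5795981, a stretch of 58 bases that the table does not list as a gene of its own. Neat1 (ENSMUSG00000092274.3) spans 5824708 to 5845480 on the same chromosome, or 20.8 kb, and holds 2 RefSeq transcripts that the table does not separate. The gap between the genes is 22.04 kb. The stretch around the Malat1 start is shown because transcription of the labelled RNA begins there. RefSeq's promoter table of GRCm38.p6 gives 300 bases on the minus strand, chr19:5802623-5802922, 250 before the start and 50 from it, with matches to the searched motifs in capitals:

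Malat1 promoter: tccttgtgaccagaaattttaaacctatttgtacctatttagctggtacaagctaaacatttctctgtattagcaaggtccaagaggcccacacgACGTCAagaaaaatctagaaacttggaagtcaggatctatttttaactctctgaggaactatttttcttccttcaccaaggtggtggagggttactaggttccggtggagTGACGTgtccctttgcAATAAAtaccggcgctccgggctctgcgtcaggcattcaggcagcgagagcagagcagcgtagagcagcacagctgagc

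The 5 motifs were chosen after the sequence had been read and were searched on both strands. TGACGT, the core of the cAMP response element, matched at -155 to -150 (minus strand of the promoter) and at -45 to -40, counted from the start. It occurs in 7.51% of the 32851 RefSeq promoter windows of this length. AATAAA, the letters of the poly(A) signal, matched at -29 to -24 and occurs in 19.6% of windows. GGTAAG, the core of a 5' splice site as U1 pairs with it, was not in this window and occurs in 9.67% of windows. TATAAA (13.6%) and CCAAT (37.4%) were not in it either. No motif overlapped another, and a match is only a run of letters. The Neat1 promoter was not in that table.

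Labelled Malat1 RNA fell after 5 h of auxin. Its level was 2731 and 3178 TMM-normalised CPM (counts scaled to library size) with 5 h of auxin, in the order of the replicate numbers, and 3905 and 4105 CPM with 0 h. Both 5 h libraries lay below both 0 h libraries, and the 5 h libraries were farther apart from each other than the 0 h libraries. The means were 2955 ± 316 CPM at 5 h and 4005 ± 141 CPM at 0 h (SD, n = 2 each). By edgeR's quasi-likelihood test, fitted over 17344 genes with Benjamini-Hochberg adjustment, the log2 fold change was -0.44 ± 0.09 (SE; 95% interval -0.64 to -0.24; adjusted p = 0.00292), so Malat1 fell by 26.2%. This call held under 15 of 16 alternatives and was lost without 0 h replicate 2. The log2 fold change was then -0.40 ± 0.16 (SE), near the value from all libraries but with a wider SE. Without 5 h replicate 2 it was -0.54, and without 5 h replicate 1 it was -0.33.

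Neat1 also fell. The 5 h libraries had 259.5 and 257 CPM and the 0 h libraries 388 and 403 CPM. Within each group the 2 libraries were close together, and the groups did not overlap. The means were 258 ± 1.53 CPM at 5 h and 396 ± 10.6 CPM at 0 h (SD, n = 2 each). The log2 fold change was -0.61 ± 0.08 (SE; 95% interval -0.80 to -0.43; edgeR, Benjamini-Hochberg adjusted p = 0.000265), so Neat1 fell by 34.7%. All 16 alternatives kept the call, with an adjusted p of at most 0.00625. Of all tested genes, 22% were called higher and 21.2% lower, and in 37.5% the groups of libraries did not overlap and lay lower at 5 h, so a fall of either RNA alone is common in this comparison. The series text calls the replicates independent, without naming separate cultures. If they share a culture, the p-values reflect only how far these samples lie apart, which may be technical. In bulk samples, fewer cells that make an RNA and less RNA per cell cannot be told apart.

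**Figure D1:**
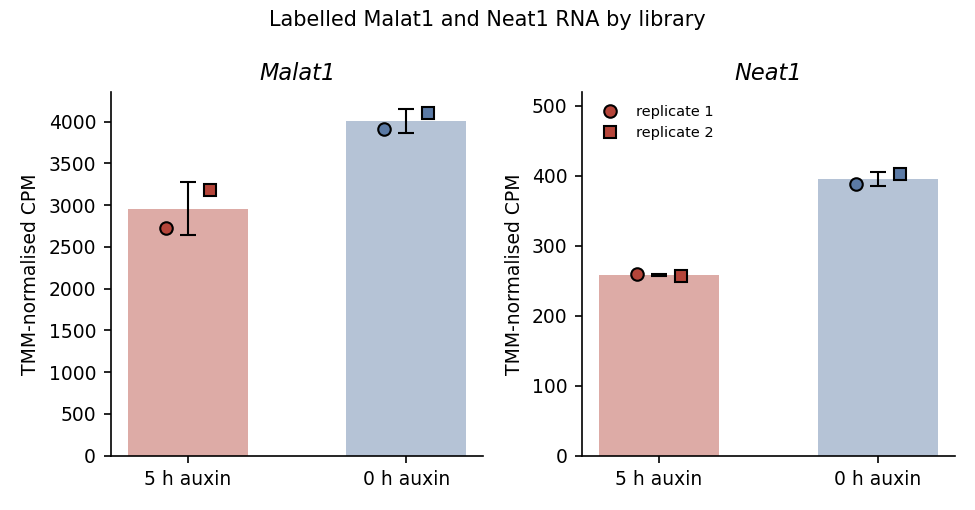
Labelled Malat1 (left) and Neat1 (right) RNA in TMM-normalised CPM, at 5 h and 0 h of auxin. Bars are means, error bars the SD of 2 libraries, and points single libraries. Both 5 h libraries lie below both 0 h libraries for each RNA, with Malat1 at 2731 and 3178 CPM against 3905 and 4105 CPM.

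The lower level was also in the counts before any scaling factor. Malat1 took 0.253% and 0.284% of all counts in the 5 h libraries, with 95% exact Clopper-Pearson intervals of 0.250% to 0.255% and of 0.281% to 0.287%. In the 0 h libraries it took 0.427% (0.424% to 0.430%) and 0.450% (0.445% to 0.455%). Neat1 took 0.0240% (0.0233% to 0.0248%) and 0.0230% (0.0221% to 0.0239%) at 5 h. At 0 h its shares were 0.0425% (0.0415% to 0.0435%) and 0.0442% (0.0426% to 0.0457%). The intervals of the 5 h and 0 h libraries did not meet for either RNA. They cover counting error only, and since the counts appear to derive from coverage the true error can be larger.

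Mitochondrially encoded RNAs, made by another polymerase outside the nucleus, give a second yardstick within each library. At 5 h their share of the library was 6.03% and 7.17%, against 4.41% and 4.34% at 0 h. Malat1 counts amounted to 4.19% and 3.96% of theirs in the 5 h libraries, against 9.68% and 10.3% in the 0 h libraries. Neat1 counts amounted to 0.398% and 0.321% at 5 h and 0.963% and 1.02% at 0 h. On this scale the log2 fold change was -1.30 for Malat1 and -1.46 for Neat1, and the median tested gene moved to -0.86. With plain library totals the values were -0.71 and -0.88, with the median gene at -0.28. With TMM the median gene was at -0.02. Both RNAs lay below the median gene each time. Since a change of scaling shifts all genes nearly alike, this could hardly differ between scalings and is no separate check.

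**Figure D2:**
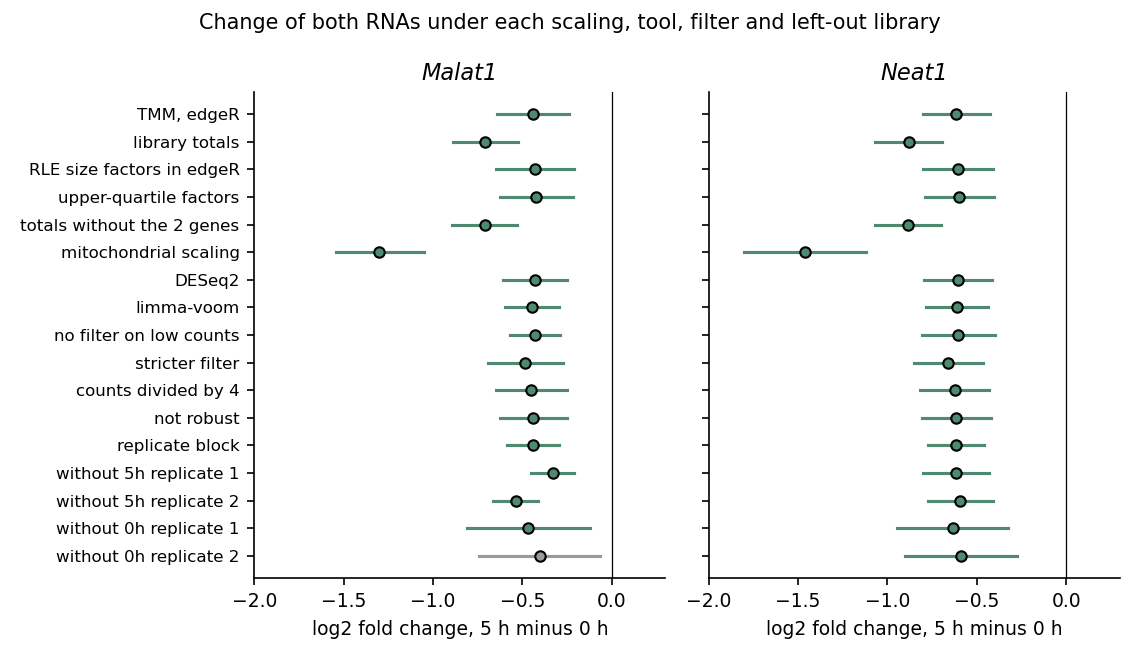
Log2 fold change (5 h minus 0 h) of Malat1 (left) and Neat1 (right) with 95% intervals, under each scaling, tool, filter and left-out library. Green points pass an adjusted p of 0.05 and grey ones do not. Only Malat1 without 0 h replicate 2, at -0.40, does not pass, and all values are below 0.

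Per length, Malat1 was the more abundant of the pair in every library. Divided by the RefSeq span, its level was 391 and 455 CPM per kb at 5 h and 559 and 588 CPM per kb at 0 h. Neat1 had 12.5 and 12.4 CPM per kb at 5 h and 18.7 and 19.4 CPM per kb at 0 h. The Neat1 values take the whole span, although its short RNA covers only part of it. Malat1 exceeded Neat1 per kb by 31.3-fold and 36.7-fold in the 5 h libraries and by 29.9-fold and 30.3-fold in the 0 h libraries.

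The ratio of the counts of the 2 genes, which no scaling can change, sets the falls of the pair side by side. Malat1 over Neat1 was 10.5 and 12.4 at 5 h, against 10.1 and 10.2 at 0 h. Both 5 h ratios lay above both 0 h ratios, 1 of them by little. The log2 ratio differed by 0.17 (5 h minus 0 h), and the exact two-sided permutation test gave p = 0.333, the smallest p that 2 libraries against 2 can give. With this number of libraries the test could not have passed 0.05, so it does not tell an equal fall from an unequal one. The difference was 0.29 without 5 h replicate 1 and 0.06 without 5 h replicate 2.

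Replicate libraries bear on how firm these values are. On the log2 scale, 5 h replicate 2 exceeded 5 h replicate 1 by 0.22 for Malat1, while the median absolute difference between these libraries was 0.13 over 2481 genes with a mean of at least 100 CPM. At 0 h the same difference was 0.07 for Malat1, with a median absolute difference of 0.08. Neat1 differed by -0.01 at 5 h and 0.05 at 0 h. When each 5 h library was set against each 0 h library (4 pairs), the log2 difference ran from -0.59 to -0.30 for Malat1 and from -0.65 to -0.58 for Neat1.

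Labelled Snrnp70 RNA, which encodes the degraded protein, was 451 and 475 CPM at 5 h and 249 and 243 CPM at 0 h (log2 fold change 0.91 ± 0.09, SE; 0.06 and not past the threshold with mitochondrial scaling). Since the degron acts on the protein, this RNA does not check the labels. Library totals ran from 7174772 to 17752887 counts, and a floor of 3 counts was 0.154 to 0.382 CPM. Across genes, the 2 libraries at 5 h correlated with r = 0.965, those at 0 h with r = 0.969, and libraries of different groups with 0.906 to 0.931. Of 10 embryonic stem cell markers all were present, with a summed level of 4147 to 4256 CPM at 5 h and 4063 to 4220 CPM at 0 h. This sum hides opposite moves, since 4 of the 10 were called higher, among them Sox2 (log2 fold change 0.86), and 3 lower, among them Tdgf1 (-0.64) and Nanog (-0.27). The 6 fibroblast markers summed to 12.5 to 13.1 CPM at 5 h and 9.16 to 10.1 CPM at 0 h, with Col3a1, Postn and Dcn at 0 in every library. The 5 primitive endoderm markers summed to 11.8 to 14.8 CPM at 5 h and 8.14 to 14.0 CPM at 0 h. Markers of early mesoderm and nerve cells summed to 44.3 to 61.8 CPM at 5 h and 36.6 to 36.9 CPM at 0 h, and 1 of them, Sox1, was called higher. Their part in the result was not tested.

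Genes at the level of Malat1 and Neat1 mostly rose. Of the 2481 genes with a mean of at least 100 CPM, 54.1% were called higher and 16.3% lower, and their median log2 fold change was 0.34. In this set 11.2% of genes had a lower fold change than Malat1 and 6.77% a lower one than Neat1, while over all tested genes these shares were 32.3% and 26%. Above 1000 CPM, a level chosen after the values were seen, there were 63 genes, of which 53 rose (84.1%) and 3 fell (4.76%). The 3 were Malat1, Tet1 (log2 fold change -0.60), which encodes an enzyme that oxidises 5-methylcytosine in DNA, and Mdm4 (-0.47), which encodes an inhibitor of p53. These shares depend on the scaling: scaled by library totals, 2297 of all tested genes were called higher and 5257 lower, and scaled by mitochondrial counts 396 and 8872.

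**Figure D3:**
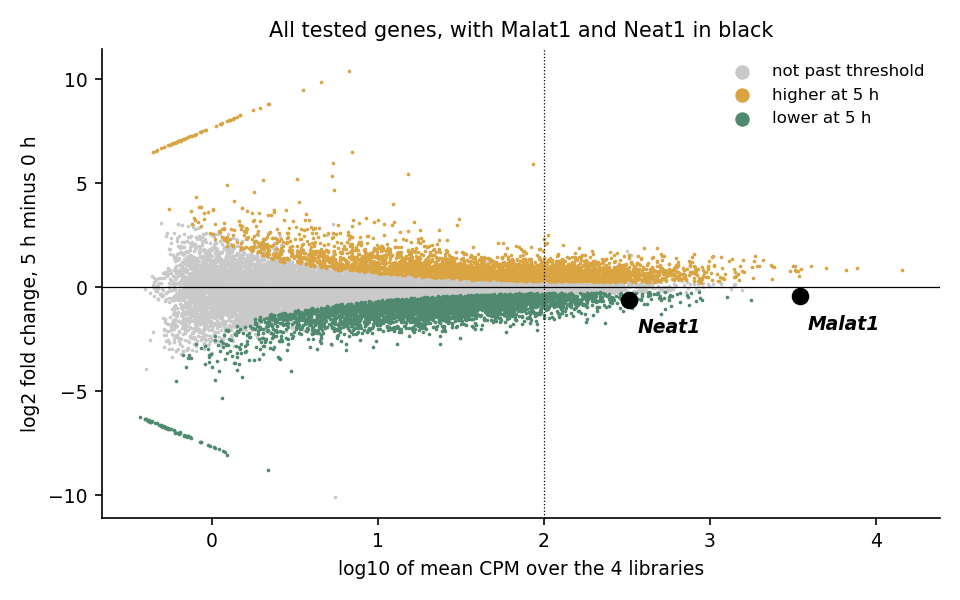
Log2 fold change (5 h minus 0 h) of the 17344 tested genes against the log10 of their mean CPM over the 4 libraries. Malat1 (-0.44) and Neat1 (-0.61) are in black, and the dotted line marks 100 CPM. To its right 54.1% of genes are called higher and 16.3% lower.

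Gene span and class were set beside the pair. For comparison, 22% of all tested genes rose and 21.2% fell, and at 100 CPM or more 54.1% rose and 16.3% fell. Among 1815 tested genes whose span is 0.7 to 1.4 times that of Malat1, 525 rose (28.9%) and 271 fell (14.9%), with a median log2 fold change of 0.14. Among 3053 genes of the span of Neat1 by the same rule, 630 rose (20.6%) and 863 fell (28.3%), with a median of -0.16. Malat1 and Neat1 lay below the median of their span group. Of 806 other tested genes whose RefSeq class is lncRNA or ncRNA (classes such as antisense RNA, which holds Tsix, and snRNA were not counted), 106 rose (13.2%) and 136 fell (16.9%), with a median of -0.17. Of the 92 with a mean of at least 20 CPM, 46 rose (50%) and 21 fell (22.8%), with a median of 0.46. With the pair included these are 94 genes, in which Neat1 stood at place 16 and Malat1 at place 21 from the lowest fold change.

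The genes around the pair did not move as 1 block. Within 200 kb of the interval from Malat1 to Neat1 RefSeq lists 27 other genes, of which 25 were in the table and 19 were tested. Of these 3 rose, 2 fell and 14 did not pass, with a median log2 fold change of -0.01 (22% and 21.2% of all genes rose and fell). The count of genes that rose depended on the setting. It was 5 with limma-voom, 6 without a filter on low counts and 0 with mitochondrial scaling.

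The closest gene on the Neat1 side, 5.49 kb away, was Frmd8, whose product binds the iRhom proteins that control shedding at the cell surface. It had 24.4 and 20.2 CPM in the 5 h libraries and 39.7 and 43.1 CPM in the 0 h libraries. The groups did not overlap, and Frmd8 fell with a log2 fold change of -0.88 ± 0.16 (SE; edgeR, Benjamini-Hochberg adjusted p = 0.00119).

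Pola2, which encodes the accessory subunit of DNA polymerase alpha and lies 95.1 kb away on the Neat1 side, was the other neighbour that fell, with 77.0 and 73.6 CPM at 5 h and 117 and 117 CPM at 0 h (log2 fold change -0.63). The 3 that rose were on the Malat1 side. Znrd2 had 18.7 and 12.8 CPM at 5 h, against 6.07 and 4.96 CPM at 0 h. Rnaseh2c, for a subunit of RNase H2, which removes RNA from hybrids with DNA, had a log2 fold change of 1.11 ± 0.24 (SE), and its neighbour Kat5, the TIP60 histone acetyltransferase, had 0.66 ± 0.14. With mitochondrial scaling Kat5 was at -0.18 and Znrd2 and Rnaseh2c no longer passed.

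Other tested neighbours did not pass the test. Rela, the p65 subunit of NF-kappa B, had a log2 fold change of -0.17 ± 0.17 (SE), and Map3k11, a kinase upstream of JNK, one of -0.06 ± 0.18. For Sipa1, a GTPase-activating protein for Rap, it was -0.09 ± 0.25, and for Capn1, a calcium-dependent protease, -0.03 ± 0.19. Dpf2, a subunit of BAF chromatin remodelling complexes, had 76.1 ± 1.33 CPM at 5 h and 76.4 ± 5.53 CPM at 0 h (SD, n = 2 each). Pcnx3 (0.33 ± 0.13) and Tigd3 (0.85 ± 0.32) did not pass, and each passed under 5 alternatives. Ehbp1l1 (-0.19), Fam89b (0.38), Ltbp3 (-1.69), Slc25a45 (-1.58) and Cdc42ep2 (1.37) did not pass, and the last 3 had means under 2 CPM in both groups. Ltbp3 passed without 5 h replicate 1, and Cdc42ep2 without 0 h replicate 1, each against a lone library at 0. Rela passed at -0.46 without 5 h replicate 1, and with mitochondrial scaling Rela, Sipa1, Map3k11, Ehbp1l1, Dpf2 and Capn1 were called lower.

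**Figure D4:**
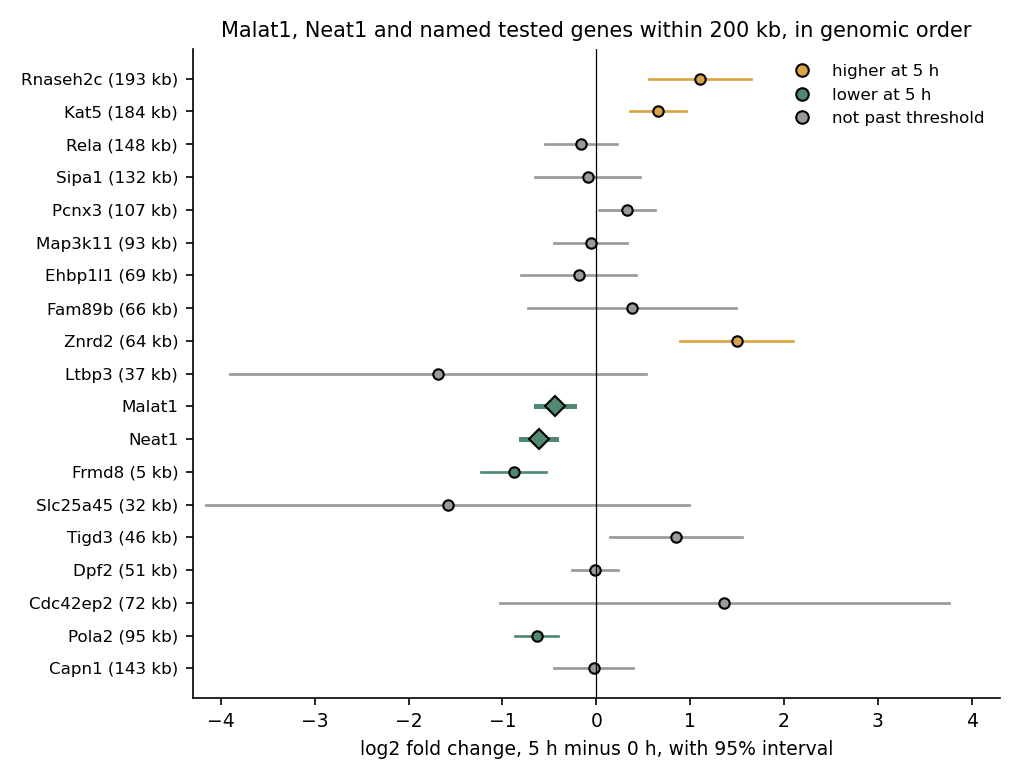
Log2 fold change (5 h minus 0 h) with 95% interval of Malat1 and Neat1 (diamonds) and of the tested genes within 200 kb that the text names (circles), in genomic order, with the distance from the interval in brackets. Malat1, Neat1, Frmd8 and Pola2 are lower, Rnaseh2c, Kat5 and Znrd2 higher, and the others shown do not pass.

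RNAs for the proteins of the bodies that Malat1 and Neat1 occupy mostly went the other way with TMM scaling. Of 29 tested genes for paraspeckle proteins, 22 rose, 4 fell and 3 did not pass, with a median log2 fold change of 0.55 beside -0.02 over all tested genes. Many of these genes are abundant, a level at which 54.1% of all genes rose. Rbm14, whose product is needed to assemble paraspeckles, had 964 and 834 CPM at 5 h, against 351 and 337 CPM at 0 h, and rose with a log2 fold change of 1.39 ± 0.09 (SE; edgeR, Benjamini-Hochberg adjusted p = 8.33e-06). Hnrnph1, for an RNA-binding protein that regulates splicing, rose by 1.25 ± 0.10.

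The core paraspeckle proteins were chosen for mention after their values were seen. Sfpq rose by 0.84 ± 0.10 (SE), Pspc1 by 0.74 ± 0.10 and Nono by 0.42 ± 0.10 on the log2 scale. Those that fell were Ciz1 (-1.11), Cirbp (-0.77), a cold-inducible RNA-binding protein, Hnrnpr (-0.71) and Ss18l1 (-0.57). With mitochondrial scaling 2 of the 29 rose and 12 fell, so the direction of this list depends on the scale.

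Of 24 genes for nuclear speckle proteins, 20 rose, none fell and 4 did not pass, with a median of 0.58. Of all tested genes 22% rose, and of those at 100 CPM or more, where most of this list lies, 54.1% rose. Srsf3, an SR protein that binds exons and export factors, had 1470 and 1568 CPM at 5 h and 534 and 569 CPM at 0 h (log2 fold change 1.46 ± 0.09, SE). Srsf7, another SR protein, rose by 1.28 ± 0.09, and Srrm1, a splicing coactivator, by 1.11 ± 0.09. Srrm2, which with Son forms the core of nuclear speckles, rose by 1.00 ± 0.08, while Son was at 0.13 ± 0.08 and did not pass. These last 2 were chosen after their values were seen. Library totals gave 13 that rose and 1 that fell, and mitochondrial scaling gave 2 and 10, with Srrm1 at 0.26 and not past the threshold.

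**Figure D5:**
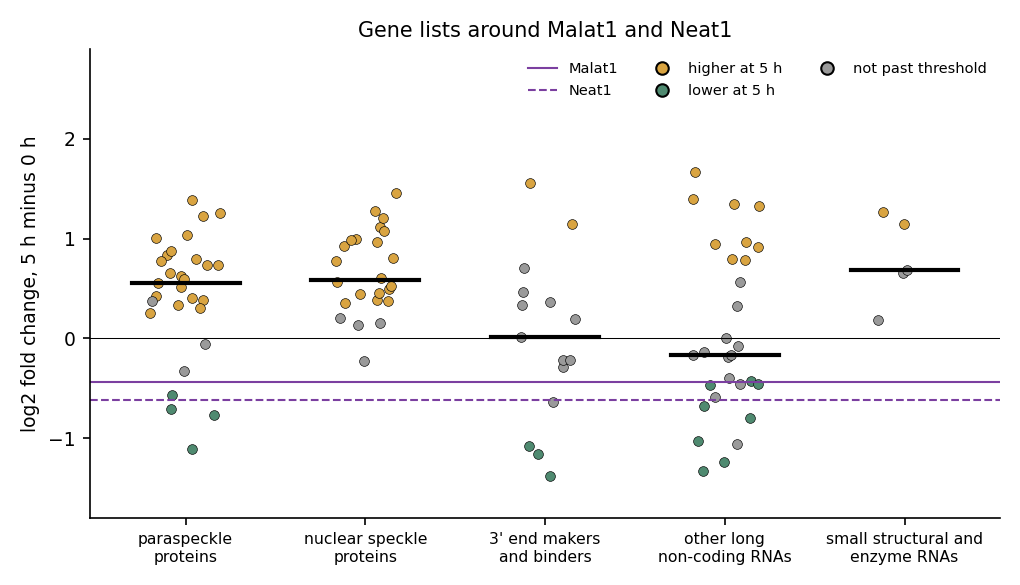
Log2 fold change (5 h minus 0 h) of the tested genes of 5 lists. Black bars are list medians, and the purple lines mark Malat1 (solid) and Neat1 (dashed). The medians of paraspeckle proteins (0.55) and nuclear speckle proteins (0.58) lie above 0, where both RNAs lie below it.

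Of 15 tested genes for factors that make or bind the 3' ends of these RNAs, 2 rose, 3 fell and 10 did not pass, with a median of 0.02. These counts are no higher than the shares over all tested genes, of which 22% rose and 21.2% fell. Mettl16, whose human product binds the triple helix at the MALAT1 3' end, had 96.3 and 103 CPM at 5 h, against 217 and 229 CPM at 0 h. It fell with a log2 fold change of -1.16 ± 0.10 (SE; edgeR, Benjamini-Hochberg adjusted p = 2.02e-05). Among RNase P protein subunits, Rpp40 had 16.3 and 16.6 CPM at 5 h and 42.5 and 43.3 CPM at 0 h (-1.38 ± 0.15), and Rpp14 was at -1.08 ± 0.14. Rpp25 was higher, with 119 and 104 CPM at 5 h and 37.6 and 38.2 CPM at 0 h (1.56 ± 0.12).

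Rpph1, the RNA of RNase P, had 272 and 216 CPM at 5 h and 138 and 81.2 CPM at 0 h, with wide gaps within each group. The log2 fold change was 1.14 ± 0.28 (SE) and passed (edgeR, Benjamini-Hochberg adjusted p = 0.0273). Leaving out 5 h replicate 1 gave 0.96 (edgeR, adjusted p = 0.444) and leaving out 5 h replicate 2 gave 1.31 (edgeR, adjusted p = 0.332), and the call was also lost with mitochondrial scaling, the stricter filter and counts divided by 4. Elac2, the RNase Z that trims tRNA 3' ends and mascRNA, was at -0.21 ± 0.13, and Trnt1, which adds CCA to tRNAs, at 0.02 ± 0.11. Neither passed. Without 5 h replicate 1, 5 of the 15 fell.

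Of 36 symbols listed for other long non-coding RNAs, 33 matched a symbol in the table and 29 were tested. Other names were not searched, so a symbol without a match can stand for an RNA listed under another name. Of these 9 rose, 8 fell and 12 did not pass, with a median of -0.17, beside 22% and 21.2% of all tested genes that rose and fell. Gas5, a host of snoRNAs in its introns, had 2163 and 2382 CPM at 5 h and 849 and 965 CPM at 0 h, with a log2 fold change of 1.33 ± 0.09 (SE). Snhg3, also a snoRNA host, rose too, with 589.8 and 527 CPM at 5 h and 216 and 207 CPM at 0 h. Tsix, the antisense partner of Xist, had 336 and 343 CPM at 5 h and 135 and 131 CPM at 0 h, a rise of 1.35 ± 0.09. No strand setting is stated in the labels, so reads of Tsix and Xist, and of a snoRNA and its host, could not be told apart. Library totals gave 13 members that fell, and mitochondrial scaling 17 that fell beside 4 that rose.

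Non-coding RNAs that fell with Malat1 and Neat1 were, chosen after their values were seen, Ftx (-1.33), a regulator of Xist, Panct2 (-1.24), Mirg (-1.03), Dleu2 (-0.80), Firre (-0.68), which marks nuclear domains across chromosomes, Lncenc1 (-0.47), Oip5os1 (-0.46) and Meg3 (-0.43). Meg3, an imprinted RNA of the same transcription domain as Mirg and Rian, averaged 171 CPM at 5 h and 230 CPM at 0 h. Rian (-0.18 ± 0.10) and Kcnq1ot1 (-0.14 ± 0.08), a long nuclear RNA that silences its imprinted domain, did not pass.

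Of 5 tested small structural and enzyme RNAs, made by RNA polymerase III, 2 rose, none fell and 3 did not pass (median 0.69). Of all tested genes 22% were called higher, and of those at 100 CPM or more, where this list lies, 54.1%. Rn7sk, the 7SK RNA that holds the elongation kinase P-TEFb inactive, had 2357 and 2831 CPM at 5 h and 1147 and 1012 CPM at 0 h (1.26 ± 0.11, SE). The other that rose was Rpph1, which is on the previous list too. For Rn7s2, a signal recognition particle RNA that has near-identical copies and is therefore uncertain, the log2 fold change was 0.69 ± 0.27, which did not pass by edgeR (Benjamini-Hochberg adjusted p = 0.111) and passed under 5 alternatives, whose adjusted p went down to 8.03e-12.

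The profiles over the 4 libraries were also compared between genes, as the distance between log2(CPM + 1) values centred on each gene's mean, over 9663 genes with a mean of at least 10 CPM. Apart from predicted genes, clone names and pseudogenes, the 5 most like Malat1 were Mplkip (distance 0.00780), Ints6 (0.0295), Smarcad1 (0.0300), Tbl1xr1 (0.0351) and Psmg1 (0.0355). Ints6 encodes a subunit of Integrator, which cuts nascent RNA, Smarcad1 a chromatin remodeller, Tbl1xr1 a subunit of nuclear corepressor complexes and Psmg1 a proteasome assembly chaperone. Mplkip had 49.9 and 58.6 CPM at 5 h and a mean of 74.1 ± 2.82 CPM at 0 h (SD, n = 2). Psmg1 did not pass the test, and the other 4 lost the call, as Malat1 did, without 0 h replicate 2.

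Those most like Neat1 were Esd (0.0122), Rab23 (0.0213), Pja2 (0.0226), Vps13d (0.0266) and Frmd6 (0.0287). Esd encodes esterase D, Rab23 a GTPase that restrains Hedgehog signalling, Pja2 a ubiquitin ligase, Vps13d a lipid transfer protein and Frmd6 a FERM domain protein. Rab23 averaged 197 ± 1.58 CPM at 5 h and 302 ± 9.38 CPM at 0 h (SD, n = 2 each). Esd, at under 20 CPM, lost its call with DESeq2 and without any 1 of the libraries, and Pja2 without 0 h replicate 2. Neat1 itself stood at place 810 of 9663 in likeness to Malat1 (distance 0.236), and Malat1 at place 858 in likeness to Neat1. With 4 libraries in 2 groups such distances reflect little more than the fold change and the replicate differences.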

How the data were processed

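4sU-labelled RNA was measured in 2 libraries at 5 h and 2 at 0 h of auxin, grouped by their titles. Per the labels' protocols, labelled RNA was biotinylated with biotin-HPDP, enriched on streptavidin and made into libraries with a Vazyme kit. The authors deposited 1 table of whole-number counts, handled as estimated counts, since its layout, per the file headers, is that of StringTie's count export. The submitters' processing notes name mm10 with StringTie 2.2.1, HISAT2 2.2.1 and DESeq2 1.42.0. Annotation, strand setting and filters are not given in the sources used here. Counts of that kind derive from coverage, so counting error can exceed the intervals.

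Genes kept by filterByExpr (17344 of 55401) were fitted in edgeR 4.0.16 (R 4.3.3) with TMM factors, robust quasi-likelihood and Benjamini-Hochberg adjustment over all of them, with 0.05 as the threshold, 5 h minus 0 h and no replicate block. The fit was run on simulated data, where 0.0421% of unchanged genes were called. Of genes with a true log2 change of -0.5 it called 5%, and of those at -1 it called 58.3%. The simulated spread was a set value and few genes changed, so these shares do not carry over to the calls here. Alternatives were other scalings, DESeq2 1.42.0, limma-voom (limma 3.58.1), other filters (stricter: at least 50 counts in 2 libraries), counts divided by 4, a replicate block and leaving out each library. Symbols were matched to RefSeq GRCm38.p6 for 39082 genes, by synonym for 117, and 16202 did not match. Named genes were the pair, Snrnp70, Zfp207 (log2 fold change 0.73 ± 0.09, SE), tested neighbours within 200 kb other than predicted genes, from every list the 3 genes of lowest adjusted p (or, with none past the threshold, the 2 of highest mean CPM) and the 5 genes of most like profile. Some genes that this rule names are not reported here. The members and lists were chosen with earlier results of these data known.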

Additional observations from a re-analysis of the deposited data

How the results depend on the processing

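Malat1 and Neat1 were lower under all 16 alternatives, with log2 fold changes of -1.30 to -0.33 and of -1.46 to -0.59. Leaving out 1 library at a time gave -0.54 to -0.33 for Malat1 and -0.63 to -0.59 for Neat1. Malat1 did not pass without 0 h replicate 2 (-0.40, adjusted p = 0.0713 by edgeR with Benjamini-Hochberg adjustment), and the cause was not tested. The log2 ratio of the pair was 0.06 to 0.29 with 1 library left out. Over all tested genes, same-numbered libraries did not deviate together from their group means (r = 0.05). With so few libraries this cannot tell whether the samples were prepared in pairs, which the labels do not state. With a replicate block the fold changes were -0.44 (Malat1) and -0.61 (Neat1) and the ratio 0.17, and 4 of the small RNAs rose instead of 2.

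With library totals 2297 genes rose, and of the lists 13 speckle genes rose and 1 fell, 5 3'-end genes and 13 long non-coding RNAs fell. Taking Malat1 and Neat1 out of the totals gave 2285 genes that rose, 14 paraspeckle and 13 speckle genes that rose, and 1 speckle, 5 3'-end and 13 non-coding genes that fell. Mitochondrial scaling gave 396 genes that rose and 8872 that fell; those that rose were 2 paraspeckle, 2 speckle, 1 3'-end, 4 long non-coding, 1 small RNA and 0 neighbours, and those that fell were 12, 10, 7 and 17 of the first 4 lists and 8 neighbours. On that scale Zfp207 (-0.13) and Kat5 (-0.18) changed sign. These scalings shift all genes together.

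The count of small RNAs that rose was 4 with limma-voom, without a filter and without robust estimation, and 1 with the stricter filter or counts divided by 4. The stricter filter left 1 3'-end gene that rose. Neighbours that rose were 5 with limma-voom and 6 without a filter or with counts divided by 4. Within 100 kb 1 of 13 tested neighbours rose and 2 fell, and within 500 kb 18 of 61 rose and 5 fell. Beside these windows, 22% of all tested genes rose and 21.2% fell. With 1 library left out, 1 to 4 small RNAs and 3 to 5 neighbours rose, and 3 to 5 3'-end genes, 0 to 1 speckle genes and 2 to 4 neighbours fell. The span groups kept medians of 0.14 and -0.14 with a span of 0.5 to 2 times. Of the other 45 named genes, over all alternatives 653 values kept direction and call, 21 lost the call, 35 gained it and 2 changed sign. The tested neighbours under 2 CPM in both groups had a library at 0 counts, so their fold changes are poorly set at this depth.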

Other observations

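Among the 94 RNAs of RefSeq class lncRNA or ncRNA with a mean of at least 20 CPM, chosen for mention after their values were seen, Platr4 had the lowest log2 fold change (-1.48), with 32.5 CPM at 5 h and 90.8 CPM at 0 h. The 3 highest were Snhg12 (1.87), a snoRNA host, with 759 CPM at 5 h and 207 CPM at 0 h, Snhg16 (1.86) and Epb41l4aos (1.67). Snhg1 had 1203 CPM at 5 h and 400 CPM at 0 h. Brip1os, named for its position opposite Brip1, was at -0.99. Reads of Brip1os and its partner could not be told apart without a strand setting.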
